A study of Mus musculus with 11 samples.

Results

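The miR-101 family of mouse liver is described here across telomerase-knockout livers with and without the tumour suppressor p53. Its members were every mature miRNA in the deposited count table whose name has the stem miR-101a, miR-101b or miR-101c, on either arm of the hairpin. This rule found 5 of the 1281 mature names in the table, namely mmu-miR-101a-3p, mmu-miR-101a-5p, mmu-miR-101b-3p, mmu-miR-101b-5p and mmu-miR-101c (the prefix for mouse is left out below), and each was listed with a single hairpin. The rule used names only and no measured value.

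The first group held 6 libraries from livers labelled G4 p53-/-, of telomerase-knockout mice with short telomeres that lack p53, and the group it was set against held 5 libraries from livers labelled G4 p53+/+, of telomerase-knockout mice with short telomeres and intact p53. Both groups are on the C57/B6 background, both carry the telomerase knockout, and neither was treated, while the sources used here give no age or sex. The question of the series is which miRNAs depend on p53. Nothing in the labels ties the libraries to separate animals, so that p-values measure only the spread between these samples, which may be technical.

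A miRNA is a short RNA, cut as one arm (5p or 3p) of a hairpin precursor, that guides the Argonaute protein to messenger RNAs which pair with its seed, the stretch of bases 2 to 8. The miR-101 family is known for repressing Ezh2, the histone methyltransferase of the Polycomb repressive complex, and the transcription factor subunit Fos. It also represses Ptgs2, the cyclooxygenase that makes prostaglandins, and Mcl1, a survival protein of the Bcl-2 family. In human liver it is known as a miRNA whose loss accompanies hepatocellular carcinoma.

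The mature sequences of all 5 members are given first because their near identity limits how their reads can be told apart. All 5 matched an entry of RefSeq on build GRCm38.p6, and bases 2 to 8 are in capitals.
miR-101a-3p: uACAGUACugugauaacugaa
miR-101b-3p: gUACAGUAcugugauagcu
miR-101c: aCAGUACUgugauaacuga
miR-101a-5p: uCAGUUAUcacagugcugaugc
miR-101b-5p: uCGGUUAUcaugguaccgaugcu
As annotated, no members share bases 2 to 8. The letters ACAGUAC, which are the seed of miR-101a-3p, begin at base 2 of miR-101a-3p, at base 3 of miR-101b-3p and at base 1 of miR-101c, so the annotated 5′ ends are shifted by 1 base against each other. Counting positions from the 5′ end of miR-101a-3p, the annotated miR-101b-3p differs from it by A16G over the 18 bases they share. miR-101c is contained in miR-101a-3p without a difference, as its bases 2 to 20. Among the 1679 mature mouse sequences of the RefSeq table, the only other miRNA with the same bases 2 to 7 as miR-101a-3p was the red-cell miRNA miR-144-3p. Its base 8 differs, and it averaged 2.52 ± 1.78 normalised CPM in p53-/- livers (SD, n = 6), against 2.10 ± 2.70 normalised CPM in p53+/+ livers (SD, n = 5). The letters ACAGUAC also occur in miR-503-5p, but from base 12, outside its seed.

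The hairpins show how the arms sit in their precursors and where miR-101b-3p ends short of miR-101a-3p in the annotation. Both mature arms are in capitals, the 5p arm first.
Mir101a: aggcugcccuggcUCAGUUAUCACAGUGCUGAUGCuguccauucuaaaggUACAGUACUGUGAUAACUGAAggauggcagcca
Mir101b: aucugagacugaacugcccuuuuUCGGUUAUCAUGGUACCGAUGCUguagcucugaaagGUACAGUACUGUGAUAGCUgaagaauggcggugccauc
The stretch of the Mir101b hairpin that lines up with all 21 bases of miR-101a-3p differs from it by A16G alone. Mir101a is 83 bases long and lies on the minus strand of chromosome 4, from 101346945 to 101347027 of GRCm38, where GENCODE M21 places it within an exon of the long noncoding RNA E130102H24Rik on the same strand. Mir101b is 97 bases long and lies on the plus strand of chromosome 19, from 29135279 to 29135375, inside Rcl1 and between its annotated exons, on the same strand. Rcl1 encodes a factor of ribosomal RNA processing. The Mir101c hairpin, 75 bases on the minus strand of chromosome 9 from 3038669 to 3038743, overlaps no other annotated gene. The hairpins therefore lie at separate loci on different chromosomes.

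Sites for the seed of miR-101a-3p were looked for in the longest annotated 3′ UTR of each target named above, to show where this seed could pair. The annotated seed of miR-101b-3p, UACAGUA, is another one, and its own sites were not searched for. The motif searched was GTACTGT, written in the sense of the messenger RNA, which is the reverse complement of ACAGUAC. It is in capitals below.
Ezh2, first site: ggaaccttgaGTACTGTgggcaatt
Ezh2, second site: aatttgcaaaGTACTGTaacagtaa
Fos: ctatatccatGTACTGTagtccttc
Ptgs2: atcagctgagGTACTGTatattact
The Ezh2 3′ UTR of 402 bases held 2 matches, at chr6:47530468-47530492 and chr6:47530413-47530437 on the minus strand of GRCm38. The Fos match lies at chr12:85476983-85477007 and the Ptgs2 match at chr1:150107391-150107415, both on the plus strand, and each of the 4 windows falls within 1 exon. No match was in the 2353 bases of the Mcl1 3′ UTR, which says only that these letters are not there. For comparison, 9.47% of the 20830 3′ UTRs of protein-coding genes held the motif at least once. Among 3′ UTRs within 20% of the length, the shares were 2.73% for Ezh2, 5.43% for Fos, 16.7% for Ptgs2 and 16.2% for Mcl1. These messenger RNAs were not measured in this series, so no effect on them can be read from its data.

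With every miRNA taken once, library totals ran from 2202415 to 6682492 in the p53-/- group and from 1905609 to 6448820 in the p53+/+ group. The hepatocyte miRNA miR-122-5p took between 52.8 and 64.0% of counts in p53-/- libraries and between 52.4 and 57.7% in p53+/+ libraries, so the tissue's defining miRNA was present in each. miR-34a-5p, a direct p53 target, averaged 7.13 normalised CPM in p53-/- livers, against 71.9 in p53+/+ livers, and it was the 1 of 388 tested miRNAs called (adjusted p = 7.07e-05 in edgeR). Of the other markers, those of pancreas were uneven between libraries: their summed level ran from 6.75 to 27.5 CPM in p53-/- libraries and from 2.86 to 410.2 CPM in p53+/+ libraries. All 6 epithelial markers had log2 fold changes below 0, with a median of -0.58, beside 198 of the 388 tested miRNAs below 0. Of the 6, 4 had an unadjusted p under 0.05 in edgeR, beside 17.3% of all tested miRNAs. Their summed level ran from 829 to 2454 CPM in p53-/- libraries and from 1096 to 2995 CPM in p53+/+ libraries. No marker list had a member called, and the part of these markers in the results on the family was not tested.

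The family was a small part of the liver's miRNA. Together its members held 0.481 ± 0.108% of all counts in p53-/- livers (SD, n = 6), against 0.497 ± 0.0784% in p53+/+ livers (SD, n = 5). By library the share ran from 0.373% in p53-/- library 6, with a 95% Wilson interval of 0.368 to 0.378%, up to 0.660% in p53-/- library 12, with one of 0.654 to 0.666%, so both ends of the range lay in the p53-/- group and the p53+/+ libraries fell between them. Intervals of this kind cover counting error only, since the reads carry no molecular identifiers. Nearly all of the family's reads were 3p arms. miR-101b-3p made up 83.7 ± 2.50% of the family's reads in p53-/- livers (SD, n = 6), against 86.0 ± 1.30% in p53+/+ livers (SD, n = 5). miR-101a-3p made up 15.9 ± 2.46% in p53-/- livers, against 13.7 ± 1.37% in p53+/+ livers.

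In order of level, miR-101b-3p was the highest and held place 23 among the 811 detected miRNAs, beside miR-143-3p and miR-30c-5p. miR-101a-3p held place 64, between let-7e-5p and miR-744-5p. The highest miR-101a-3p library, at 942.7 normalised CPM, lay below the lowest miR-101b-3p library, at 2927 CPM. miR-101b-5p and miR-101c followed at places 255 and 275, and their ranges over libraries overlapped. miR-101a-5p came last with 1 read in all. Levels are reads per mature miRNA after TMM scaling (normalised CPM), and since mature miRNAs are all of about the same length no correction for length was made. In tissue RNA, fewer cells of a type and less RNA per cell cannot be told apart.

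**Figure D1:**
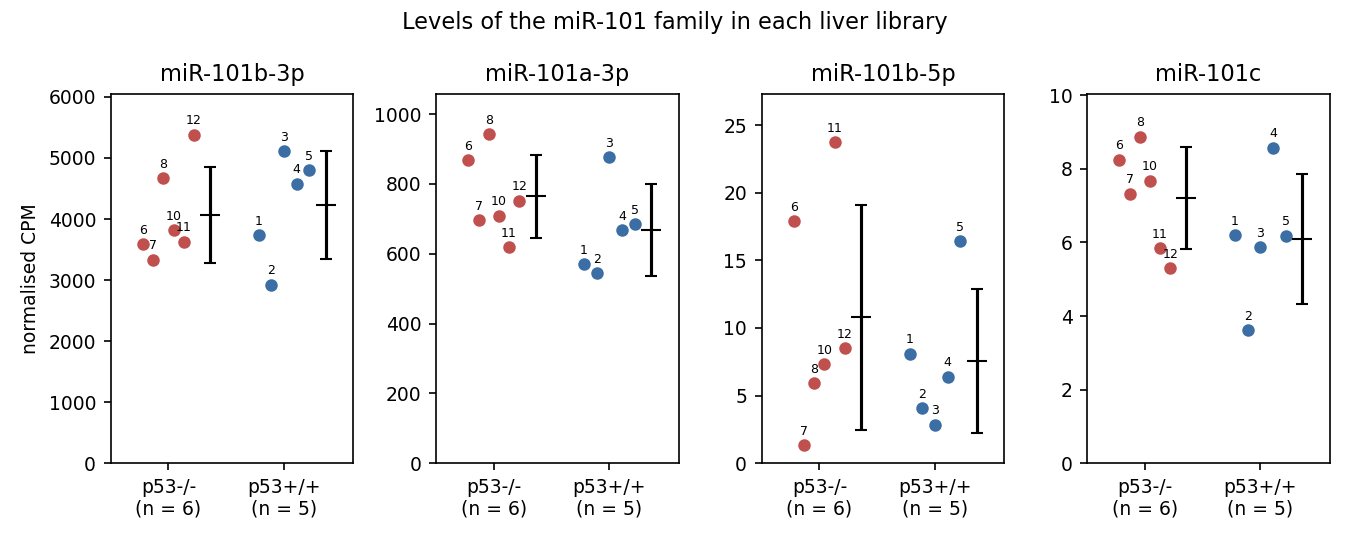
Normalised CPM of the 4 members with reads in every library, 1 panel each with its own linear axis from 0. Points are libraries with their replicate numbers, p53-/- on the left (n = 6) and p53+/+ on the right (n = 5), and the black mark and bar beside each group are its mean and SD; the groups overlap in every panel, and miR-101b-5p is the most scattered.

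For miR-101b-3p, the main member, the difference between genotypes was smaller than the spread of the libraries. It stood at 3590, 3333, 4665, 3817, 3630 and 5383 normalised CPM in p53-/- libraries 6, 7, 8, 10, 11 and 12. In p53+/+ libraries 1 to 5 it stood at 3739, 2927, 5107, 4581 and 4795 CPM. The groups overlap throughout: the highest library of all is p53-/- library 12, the lowest is p53+/+ library 2, and 2 of the 6 p53-/- libraries were above the p53+/+ median. The means were 4070 ± 789 CPM in p53-/- livers (SD, n = 6), against 4230 ± 887 CPM in p53+/+ livers (SD, n = 5). The log2 fold change of p53-/- over p53+/+ was -0.06 (SE 0.18, adjusted p = 0.907 in edgeR's quasi-likelihood test). Its 95% interval, -0.44 to 0.33, corresponds to between 0.736 and 1.26 times the p53+/+ level.

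miR-101a-3p, which carries the family's seed at its annotated place, was also not called. It stood at 867.5, 696.5, 942.7, 708.8, 618.6 and 751.5 normalised CPM in p53-/- libraries 6, 7, 8, 10, 11 and 12. In p53+/+ libraries 1 to 5 it stood at 569.8, 544.3, 876.8, 668.1 and 683.9 CPM. Here 5 of the 6 p53-/- libraries were above the p53+/+ median, but p53+/+ library 3 was higher than 5 of them. The 2 lowest values were those of p53+/+ libraries 1 and 2, which are also the shallowest of their genotype. The means were 764 ± 120 CPM in p53-/- livers (SD, n = 6), against 669 ± 131 CPM in p53+/+ livers (SD, n = 5), a log2 fold change of 0.19 with an SE of 0.17. The 95% interval was -0.16 to 0.55 and the adjusted p 0.580 in edgeR. Without p53+/+ libraries 1 and 2 the log2 fold change was 0.08 (adjusted p = 0.851 in edgeR). The p53-/- libraries 10, 11 and 12 have HA numbers above 500 in the labels, nearest to those of the p53+/+ libraries, HA580 to HA584. With these 3 p53-/- libraries alone the log2 fold change was 0.03 (adjusted p = 0.977 in edgeR). The meaning of the HA number is not given.

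None of the 4 members that could be tested was called: edgeR called 0, DESeq2 called 0, and 0 had an unadjusted p under 0.05 in edgeR. Over all 388 tested miRNAs the share called was 0.258%, with 1.82% of those with an adjusted p called in DESeq2, and 17.3% had an unadjusted p under 0.05 in edgeR, so a count of 0 among 4 members is near the background. Groups that did not overlap were found for 2.32% of tested miRNAs and for 0 of the 4 members. The differences of the main members were also smaller than those of most tested miRNAs. A larger log2 fold change in either direction than that of miR-101a-3p was found for 65.5%, and than that of miR-101b-3p for 87.1%. Those miRNAs are of all levels, and scarcer ones scatter more. The median SD of log2(CPM + 1) within genotypes was 0.32 for miRNAs at or above 100 CPM, against 0.45 within 2-fold of the level of miR-101b-5p.

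**Figure D2:**
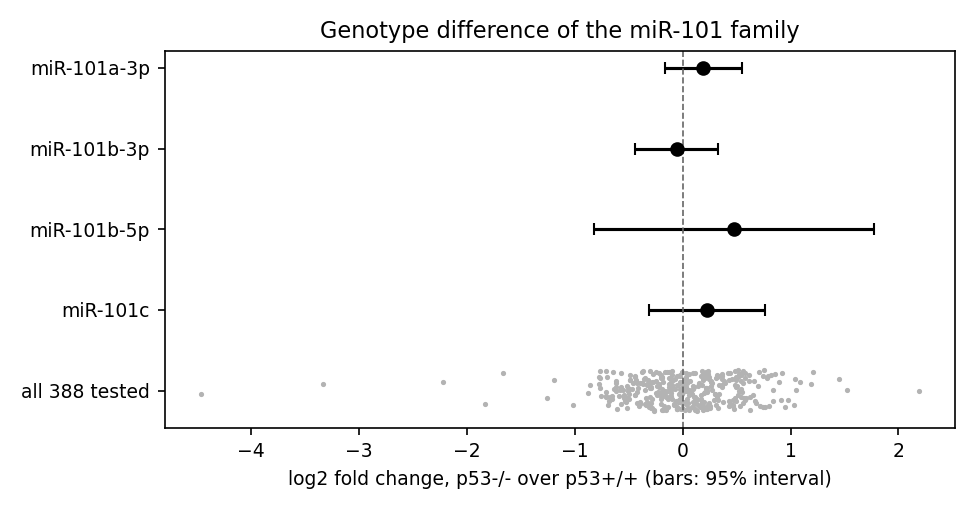
Log2 fold change of p53-/- over p53+/+ for the 4 tested members with 95% intervals from edgeR's quasi-likelihood fit, above the values of all 388 tested miRNAs as grey points spread vertically for display. All 4 intervals include 0, and that of miR-101b-5p is the widest, from -0.82 to 1.77.

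The balance of the 2 main 3p arms was then compared, because a ratio within a library does not depend on how libraries are scaled. miR-101a-3p had 24.2, 20.9, 20.2, 18.6, 17.0 and 14.0% as many reads as miR-101b-3p in p53-/- libraries 6, 7, 8, 10, 11 and 12, against 15.2, 18.6, 17.2, 14.6 and 14.3% in p53+/+ libraries 1 to 5. The 3 highest values are p53-/- libraries 6, 7 and 8, and the lowest is also a p53-/- library, number 12. On the log2 scale the ratio averaged -2.41 ± 0.27 in p53-/- livers (SD, n = 6), against -2.65 ± 0.16 in p53+/+ livers (SD, n = 5). The difference of 0.25 was within the spread (two-sided exact permutation p = 0.126, adjusted p = 0.251 over 2 ratios). Without p53-/- library 12, which has the lowest ratio, the difference was 0.33 (exact permutation p = 0.0397, before adjustment). With any other single library left out, the exact permutation p was between 0.0952 and 0.230 before adjustment.

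The libraries with the highest ratios share a feature of the labels. p53-/- libraries 6, 7 and 8 are labelled HA406, HA407 and HA411 and had ratios of 20.2 to 24.2%. p53-/- libraries 10, 11 and 12, labelled HA573, HA587 and HA588, had ratios of 14.0 to 18.6%, and the p53+/+ libraries, labelled HA580 to HA584, had ratios of 14.3 to 18.6%. With those 3 p53-/- libraries alone the log2 difference from the p53+/+ libraries was 0.05. No p53+/+ library has an HA number below 500, so what HA numbers stand for and the genotype cannot be told apart for libraries 6, 7 and 8.

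**Figure D3:**
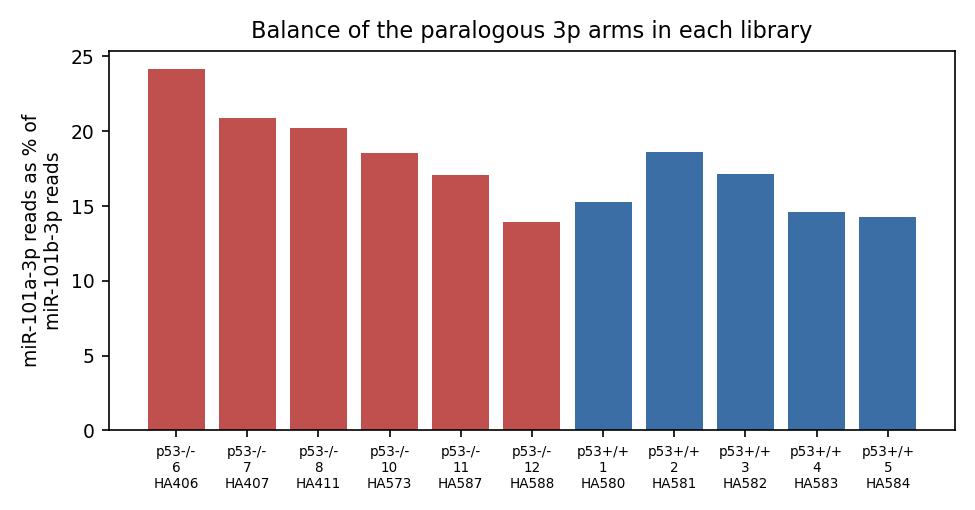
Reads of miR-101a-3p as a percentage of the reads of miR-101b-3p in each library, p53-/- in red on the left and p53+/+ in blue on the right, with the HA number of the labels under each bar. The bars of p53-/- libraries 6, 7 and 8, at 20.2 to 24.2%, are the tallest, and p53-/- library 12, at 14.0%, is the shortest.

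Over libraries the main 3p arms went together only loosely. Log2 levels of miR-101a-3p and miR-101b-3p had a Pearson r of 0.55 over the 11 libraries (permutation p = 0.0790, adjusted p = 0.118 over 3 relations) and a Spearman rho of 0.52 (permutation p = 0.107, adjusted p = 0.288). Without the 2 libraries farthest from the miR-101a-3p median, p53+/+ library 2 and p53-/- library 8, r was 0.32. Leaving out the extremes narrows the range and tends to lower r, so this cannot decide whether the relation rests on those. Within the 6 p53-/- libraries r was 0.39 (exact permutation p = 0.435). The 5 p53+/+ libraries are too few for a value of their own.

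The miRNAs most like the main arms over the 11 libraries were others, ranked by Pearson r of log2 normalised CPM among the 125 miRNAs with a mean of at least 100 CPM. For miR-101a-3p they were miR-25-3p (r = 0.86), miR-23a-3p (0.81), miR-152-3p (0.80), miR-99b-5p (0.80) and miR-10a-5p (0.74), and miR-101b-3p held place 20 of 124. For miR-101b-3p they were miR-185-5p (r = 0.89), miR-100-5p (0.83), miR-140-3p (0.82), miR-103-3p (0.79) and miR-27b-3p (0.79), and miR-101a-3p held place 22. No miRNA was in both lists of 5. These r describe the same 11 libraries, which share their depth and scaling within each library, and carry no test.

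The other arms of the hairpins, which are mostly discarded when the hairpin is loaded into Argonaute, were close to absent. miR-101a-5p had 1 read, in p53+/+ library 3, and 0 reads in every other library. A count of 0 allows up to 3 counts, which corresponded to between 0.449 and 1.57 CPM of the library totals, before TMM scaling. No difference in miR-101a-5p was therefore detectable at this depth. Over all libraries miR-101a-3p held 38888 reads against that 1 read, or 99.997% of the reads of its hairpin. For Mir101b the 3p arm held 224288 reads and the 5p arm 434, or 99.8%. Among the 169 hairpins with both arms listed and at least 1000 reads, Mir101a was the 15th and Mir101b the 56th most one-sided, where the median share of the main arm was 99.2%.

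miR-101b-5p was the uneven member. It had 78, 9, 32, 39, 65 and 61 reads in p53-/- libraries 6, 7, 8, 10, 11 and 12. In p53+/+ libraries 1 to 5 it had 17, 9, 17, 38 and 69 reads. After scaling these are 17.9, 1.35, 5.92, 7.31, 23.7 and 8.51 CPM in the p53-/- libraries, against 8.11, 4.06, 2.85, 6.39 and 16.4 CPM in the p53+/+ libraries. Libraries of both genotypes are at the top (p53-/- libraries 11 and 6, p53+/+ library 5) and near the bottom (p53-/- library 7, p53+/+ library 3). The highest library was 17.6 times the lowest. The exact 95% Poisson interval, for counting error only, is 18.3 to 30.3 CPM for p53-/- library 11 and 0.615 to 2.55 CPM for p53-/- library 7.

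The genotype means of miR-101b-5p were 10.8 ± 8.35 CPM in p53-/- livers (SD, n = 6), against 7.56 ± 5.35 CPM in p53+/+ livers (SD, n = 5), a log2 fold change of 0.47, with an SE of 0.60 and an adjusted p of 0.715 in edgeR. Its swings did not follow those of the 3p arm of the same hairpin. miR-101b-3p had between 153 and 2478 reads per read of miR-101b-5p in p53-/- libraries, and between 292 and 1792 in p53+/+ libraries. Log2 levels of both arms had an r of 0.09 over the 11 libraries (permutation p = 0.789) and a rho of 0.09 (permutation p = 0.797). Without the 2 libraries farthest from the miR-101b-3p median, p53+/+ library 3 and p53-/- library 12, r was 0.31. The log2 ratio of 3p to 5p averaged 9.0 ± 1.43 in p53-/- livers (SD, n = 6), against 9.33 ± 0.96 in p53+/+ livers (SD, n = 5), a difference of -0.33 within the spread (exact permutation p = 0.662, adjusted p = 0.662).

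**Figure D4:**
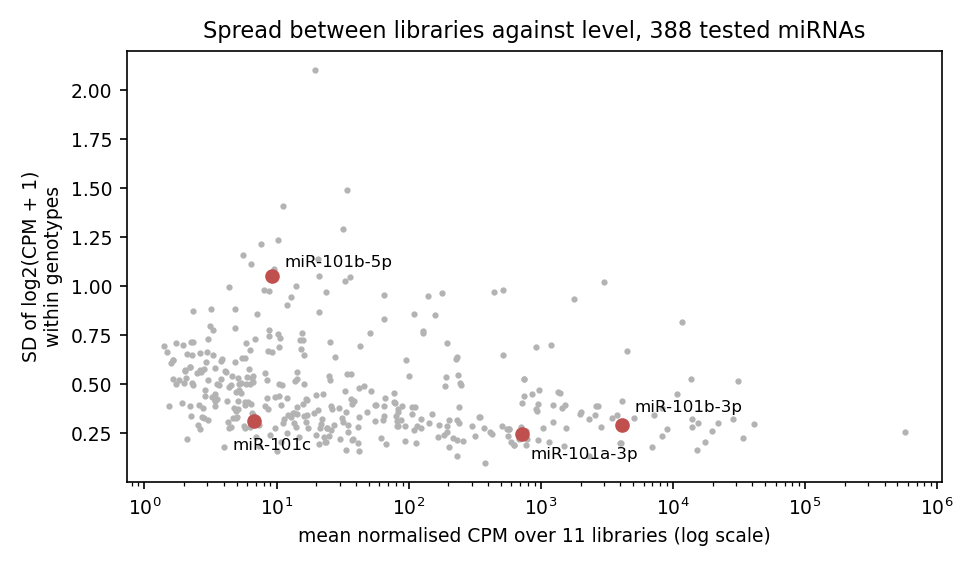
Spread between libraries of one genotype, as the pooled SD of log2(CPM + 1), against the mean normalised CPM on a log axis, for the 388 tested miRNAs in grey and the 4 tested members in red. miR-101b-5p, at an SD of 1.05, stands above most miRNAs of its level, and the other 3 members are at 0.24 to 0.31.

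The spread of the members was set beside that of other miRNAs of like level. The pooled SD of log2(CPM + 1) within genotypes was 1.05 for miR-101b-5p, and 6 of the 106 tested miRNAs within 2-fold of its level had a larger one, with a median of 0.45. miR-101a-3p had an SD of 0.24, the 30th smallest of the 125 miRNAs at or above 100 CPM. miR-101b-3p had an SD of 0.29, the 53rd smallest, where the median was 0.32. The highest library was 1.73 times the lowest for miR-101a-3p and 1.84 times for miR-101b-3p.

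miR-101c had few reads beside miR-101a-3p, whose sequence contains it. It had 36, 49, 48, 41, 16 and 38 reads in p53-/- libraries 6, 7, 8, 10, 11 and 12, against 13, 8, 35, 51 and 26 reads in p53+/+ libraries 1 to 5. As a share of the reads of miR-101c and miR-101a-3p together it ran from 0.700 to 1.07% in p53-/- libraries and from 0.659 to 1.27% in p53+/+ libraries. The 95% Wilson intervals of most libraries overlap, but that of p53+/+ library 4, from 0.966%, lies above those of p53+/+ library 3, up to 0.923%, and p53-/- library 12, up to 0.960%. A read of the miR-101c sequence could come from either locus, so its count is uncertain as a measure of Mir101c.

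The level of miR-101c was 7.21 ± 1.39 CPM in p53-/- livers (SD, n = 6), against 6.09 ± 1.76 CPM in p53+/+ livers (SD, n = 5). The log2 fold change was 0.22, with an SE of 0.25 and an adjusted p of 0.677 in edgeR. With miR-101a-3p its log2 level had an r of 0.58 over the 11 libraries (permutation p = 0.0619, adjusted p = 0.118 over 3 relations) and a rho of 0.43 (permutation p = 0.192, adjusted p = 0.288). Without p53+/+ library 2 and p53-/- library 8, which are farthest from the miR-101a-3p median, r was 0.12. Leaving out the extremes narrows the range and tends to lower r, so this cannot decide whether the relation rests on those libraries. Within the 6 p53-/- libraries r was 0.67 (exact permutation p = 0.144).

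**Figure D5:**
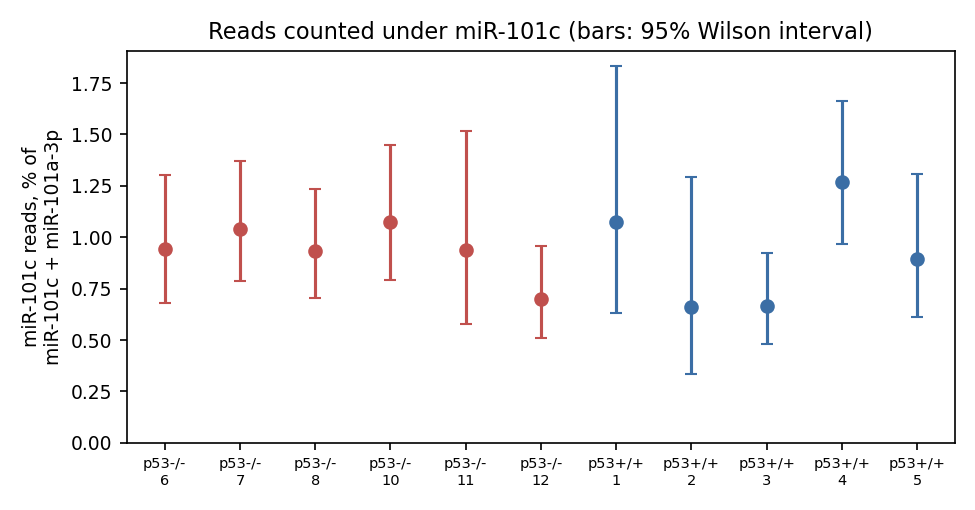
Reads of miR-101c as a percentage of the reads of miR-101c and miR-101a-3p together, by library, with 95% Wilson intervals for counting error, p53-/- in red on the left and p53+/+ in blue on the right. All libraries lie between 0.659 and 1.27%.

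Other miRNAs reported to repress Ezh2 were set beside the family. Of a list of 17 arms (miR-26a, miR-26b, miR-138, miR-214, miR-124, miR-144, miR-137, miR-217, miR-98 and the let-7 family), 15 could be tested, with 6 values above 0, 9 below 0 and 0 called in edgeR. The median log2 fold change was -0.06, beside -0.01 over all 388 tested miRNAs. At an unadjusted p under 0.05 in edgeR there were 5 of the 15 arms, beside 17.3% of all tested miRNAs, and DESeq2 called 0. The 4 with the smallest p were miR-217-5p, miR-26b-5p, let-7e-5p and miR-26a-5p.

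miR-217-5p, an acinar miRNA of the pancreas, was at 1.78 ± 1.06 CPM in p53-/- livers (SD, n = 6), against 40.7 ± 69.4 CPM in p53+/+ livers (SD, n = 5) (adjusted p = 0.174 in edgeR), with the uneven pancreas markers above. miR-26b-5p was at 2067 ± 357 CPM in p53-/- livers (SD, n = 6), against 3165 ± 952 CPM in p53+/+ livers (SD, n = 5), a log2 fold change of -0.61 (adjusted p = 0.174 in edgeR). let-7e-5p was at 864 ± 357 CPM in p53-/- livers, against 561 ± 41.8 CPM in p53+/+ livers (log2 fold change 0.62, adjusted p = 0.190 in edgeR). miR-26a-5p had a log2 fold change of -0.43 (adjusted p = 0.225 in edgeR). The 17 arms of the list together summed to 94297 to 145121 CPM in p53-/- libraries and 114878 to 131738 CPM in p53+/+ libraries, and the groups overlap. This sum is far above the level of the miR-101 family, but not every arm of the list is. By their means, let-7e-5p and miR-26b-5p were below miR-101b-3p, and miR-124-3p had 0 reads.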

How the data were processed

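Small RNA from mouse liver was sequenced in 11 libraries, 6 labelled G4 p53-/- and 5 labelled G4 p53+/+, all with the same date and lane 4 in the labels. Per the labels' protocols, RNA was isolated from 50 mg of tissue. The authors deposited raw read counts per mature miRNA and hairpin in 1418 entries, and a table of CPM in which those counts are scaled to a fixed total per library. The submitters' processing notes name build GRCm38 and limma; the aligner and counter, and whether reads matching several miRNAs were counted for each, are not stated in any source used here. Between the files of single libraries and the series table, 0 counts differed.

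Each mature name was counted once, with its highest count over hairpins. Genotypes were compared by a quasi-likelihood F-test (edgeR 4.0.16, R 4.3.3) after TMM scaling and filterByExpr, with Benjamini-Hochberg adjustment over all tested miRNAs and a threshold of 0.05. Of the 5 members 4 passed the filter; miR-101a-5p did not. SE and 95% intervals come from the F statistic. Ratios used a pseudocount of 0.5 counts and exact two-sided permutation tests (scipy 1.17.1). Correlations over the 11 libraries used 100000 random permutations, and those within the 6 p53-/- libraries used every permutation. The planned ratio of the arms of Mir101a was not computed, because miR-101a-5p had 1 read; the ratio of the arms of Mir101b was added after seeing the data. DESeq2 1.42.0 and limma 3.58.1 served as alternatives. The test was checked on simulated counts. The members, the lists and the rule for named miRNAs (every member, the 5 most alike to each main arm, the 4 of the list with the smallest p) were chosen with earlier results of these data known. Marker lists were hepatocyte, erythroid, leukocyte, endothelial, stellate, epithelial and pancreas miRNAs.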

Additional observations from a re-analysis of the deposited data

How the results depend on the processing

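No member was called under any of the 20 alternatives of the genotype test, which covered scaling, the filter, the hairpin rule, DESeq2, limma on the authors' CPM, the exclusion of miR-122-5p and the libraries left out. Adjusted p-values were 0.439 or higher for miR-101a-3p, 0.555 or higher for miR-101b-3p, 0.460 or higher for miR-101b-5p and 0.489 or higher for miR-101c. With a library left out, log2 fold changes ran from 0.09 to 0.27, from -0.20 to -0.01, from 0.16 to 1.00 and from 0.08 to 0.36 for these members. The value of miR-101c was -0.0053 when p53-/- libraries 6, 7 and 8 (HA numbers below 500) were left out; fewer samples entered there. The number of miRNAs called was 7 in DESeq2 and 1 in every other alternative. The difference in the log2 ratio of miR-101a-3p to miR-101b-3p ran from 0.18 to 0.33 with a library left out. That in the ratio of miR-101b-3p to miR-101b-5p ran from -0.77 to 0.03, above 0 without p53+/+ library 3 (0.031) and without p53-/- library 11 (0.021); the cause was not tested. The genotype difference in the family's share and the median of the list reported to repress Ezh2 moved by less than the spread between libraries, but both changed sign. With a library left out, the share difference ran from -0.052 to 0.013 percentage points and the list median from -0.12 to 0.05. The share difference was 0.035 percentage points without p53-/- libraries 6, 7 and 8. No paired analysis was possible because the replicate numbers of the titles run on across genotypes and pair no libraries. Depth limits miR-101a-5p, which could not be tested, and miR-101b-5p and miR-101c, which rest on 8 to 78 reads per library.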

Other observations

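The miRNAs whose levels went most closely with miR-101b-5p were looked for after its spread had been seen, among the 306 other tested miRNAs with a mean of at least 5 normalised CPM. The 5 with the highest Pearson r of log2 level over the 11 libraries were miR-5099 (0.85), miR-320-3p (0.80), miR-690 (0.77), miR-5117-5p (0.77) and miR-5109 (0.73). miR-320 is known to be made without the Drosha enzyme that cuts most hairpins, and a link of this to miR-101b-5p was not tested. The pooled SD within genotypes was 0.93 for miR-5099, 0.40 for miR-320-3p, 0.64 for miR-690, 0.71 for miR-5117-5p and 1.02 for miR-5109. The mean levels of these 5 ran from 27.6 CPM for miR-690 to 3020 CPM for miR-5109. These are the highest of 306 values, chosen after they were seen, and carry no test.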
